A study of Mus musculus with 10 samples.

Results

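The genes described here are 187 members of the solute carrier (SLC) superfamily that carry ions, sugars, metals, monocarboxylates, organic ions, nucleosides, vitamins and phosphate across membranes. They were chosen by symbol, from probes with a single gene symbol in the platform annotation, and the families that chiefly carry amino acids and transmitters (1, 3, 6, 7, 17, 18, 32, 36, 38 and 43) and the mitochondrial carriers (25) were left out. They make up 187 of the 13840 genes the annotation names and fall into 39 families. Transcript levels were measured on 10 single-channel Applied Biosystems microarrays, in a series set up to compare array platforms with cortex as the reference RNA. Of these, 5 were hybridised with RNA from the retina of adult C57/B6 mice, a pool of 350 animals, and 5 with RNA from the cortex of mice at postnatal day 1, a pool of 19 animals. For the strain of the cortex mice the labels disagree, with C57/B6 in the sample descriptions and Swiss-Webster in the text of the series. The titles of the retina arrays also carry the letters P1, with no meaning given, and both texts call that retina adult. No genetic change or treatment is given for either pool.

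Each tissue was represented by 1 RNA pool run on 5 arrays, so every p-value below measures the spread between arrays and not between animals. Tissue cannot be told apart from age, nor from strain if the cortex mice were Swiss-Webster. In whole tissue, a lower level of a transcript can come from fewer cells of a type or from less RNA per cell, and these cannot be told apart here. Retina arrays were dimmer as deposited (array medians of 836.5 to 986.7, against 1255 to 1341 for cortex arrays), and they were brought to 1 common distribution before the comparison. No detection call was used. Probes for olfactory receptors, which few cells outside the nose express, served as a measure of dim signal: 95% of these 747 probes had a mean log2 intensity under 10.77 in retina and under 10.65 in cortex. A member is called dim in a tissue when its mean lay under that level there. Marker genes matched the labelled tissues: all 3 measured rod markers were higher in retina (by 9.66 to 10.80 on the log2 scale) and all 5 markers of cortical neurons were lower (by -8.18 to -4.30).

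SLC proteins are the transporters of the cell membrane and of organelles that move solutes down a gradient or couple 1 solute to another, without splitting ATP themselves. In the adult retina, photoreceptors import large amounts of glucose and release lactate, extrude calcium through a potassium-dependent sodium-calcium exchanger in the outer segment, and exchange fuels, ions and metals with Müller glia and the pigment epithelium. In the newborn cortex, neurons still load chloride, and the meninges, choroid plexus and vessels carry transporters for organic anions and thyroid hormone.

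Promoter windows of 5 called members are shown, so that start regions of transcripts from both directions of the comparison can be read side by side. These windows were picked singly and do not stand for all called members. They are RefSeq sequences of build GRCm38.p6, from 250 bases before to 50 bases after an annotated transcript start, 5′ to 3′ on the gene's strand. RefSeq windows were found for 152 of the 187 genes, with 188 windows in all. Capitals mark the letters TAATCC, the core of the motif of the photoreceptor factor CRX, or CACGTG, the E-box of USF and TFE family factors, each searched on both strands. The windows are Slc24a1 (the rod sodium-calcium exchanger; chr9:64951571-64951870, minus strand, no match), Slco4a1 (an organic anion transporter; chr2:180460728-180461027, plus strand, second of 2 windows, TAATCC), Slc46a3 (a lysosomal transporter; chr5:147894766-147895065, minus strand, TAATCC), Slc31a2 (a copper transporter of endosomes; chr4:62286179-62286478, plus strand, CACGTG), all 4 higher in retina, and Slc22a6 (an organic anion transporter lower in retina; chr19:8617746-8618045, plus strand, TAATCC).
Slc24a1: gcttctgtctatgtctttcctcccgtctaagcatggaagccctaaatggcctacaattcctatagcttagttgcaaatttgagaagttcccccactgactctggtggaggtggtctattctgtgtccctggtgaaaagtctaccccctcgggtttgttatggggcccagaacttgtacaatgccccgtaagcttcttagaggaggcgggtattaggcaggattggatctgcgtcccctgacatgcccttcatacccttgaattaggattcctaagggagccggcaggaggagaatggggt
Slco4a1: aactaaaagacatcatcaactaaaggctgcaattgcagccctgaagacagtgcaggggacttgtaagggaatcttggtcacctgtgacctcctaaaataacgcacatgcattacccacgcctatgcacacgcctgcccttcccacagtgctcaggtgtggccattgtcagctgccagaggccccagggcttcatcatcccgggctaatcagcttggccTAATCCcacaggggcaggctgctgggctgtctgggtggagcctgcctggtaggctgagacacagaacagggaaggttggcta
Slc46a3: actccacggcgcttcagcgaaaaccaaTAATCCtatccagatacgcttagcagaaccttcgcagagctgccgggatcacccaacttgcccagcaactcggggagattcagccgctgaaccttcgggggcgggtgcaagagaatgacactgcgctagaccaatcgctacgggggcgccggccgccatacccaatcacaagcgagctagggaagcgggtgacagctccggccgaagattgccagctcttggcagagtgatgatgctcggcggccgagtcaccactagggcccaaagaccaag
Slc31a2: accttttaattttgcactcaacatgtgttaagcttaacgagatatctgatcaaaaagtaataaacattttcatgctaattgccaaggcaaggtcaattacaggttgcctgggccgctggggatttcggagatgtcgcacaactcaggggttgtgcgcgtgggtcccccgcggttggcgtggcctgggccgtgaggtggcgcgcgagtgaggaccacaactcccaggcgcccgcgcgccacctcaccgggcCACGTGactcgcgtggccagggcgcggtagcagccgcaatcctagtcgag
Slc22a6: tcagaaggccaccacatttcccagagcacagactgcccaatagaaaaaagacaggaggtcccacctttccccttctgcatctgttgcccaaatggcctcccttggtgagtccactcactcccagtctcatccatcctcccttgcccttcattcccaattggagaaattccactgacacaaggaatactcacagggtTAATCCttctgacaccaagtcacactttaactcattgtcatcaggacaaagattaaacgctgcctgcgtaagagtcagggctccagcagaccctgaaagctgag
The letters TAATCC were present in 3 of 27 windows of members higher in retina, in 2 of 22 windows of members lower there and in 10 of 139 windows of members not called, against 7.06% of all 32851 windows of this length. CACGTG was present in 5 of 27, 5 of 22 and 12 of 139 windows, against 7.15% of all windows. The first window of Slco4a1, not shown, held neither motif. These matches describe the letters only, and neither motif contains the other.

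Of the 187 members, 29 (15.5%) were higher in retina and 25 (13.4%) were lower, where a call needs a limma adjusted p under 0.05 and a difference of at least 2-fold. Over all 13840 named genes, 14.2% were called higher and 14.7% lower, so the members were called about as often as genes at large. These shares are the background for the counts of role groups and gene lists below. The remaining 133 members were not called; 42 of them passed the adjusted p but not the 2-fold minimum. Differences are log2 intensity in retina minus that in cortex, and their median over the members was -0.04. In 47 members every retina array lay above every cortex array (25.1% of all named genes did) and in 37 every cortex array lay above every retina array (25.2% of all named genes). Without the normalization between arrays, where the median difference of all probes was -0.41, 19 members were higher and 45 lower, against 8.86% and 24.3% of all named genes. Dim signal was common: 99 members (52.9%, against 37.8% of all named genes) were dim in both tissues, and 17 of these (17.2%, against 13.4% of such genes at large) were called. Of the 54 called members, 21 were above the olfactory receptor level in both tissues and 16 were dim in one. A fold change against a dim value depends on background signal. For such a member the difference was therefore also taken with the dim tissue set at the olfactory receptor level. For comparison, 9 of 64 genes of the amino acid and transmitter SLC families were higher in retina and 12 lower, and of 34 mitochondrial carriers of family 25, 5 were higher and 3 lower.

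**Figure D1:**
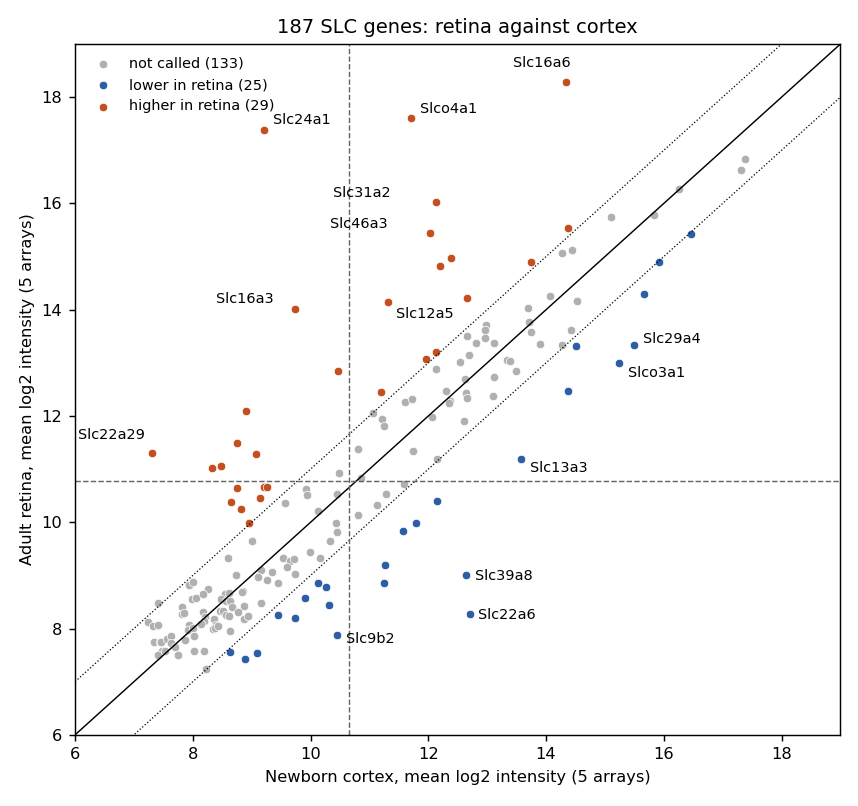
Mean log2 intensity of 187 SLC genes in newborn cortex (x axis) and adult retina (y axis), 5 arrays each; the solid line marks equal values, the dotted lines a 2-fold difference, and the dashed lines the olfactory receptor level (10.65 in cortex, 10.77 in retina). Points are coloured by call: 29 genes are higher in retina, 25 lower and 133 not called, and Slc24a1 lies farthest from the line of equal values.

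**Figure D2:**
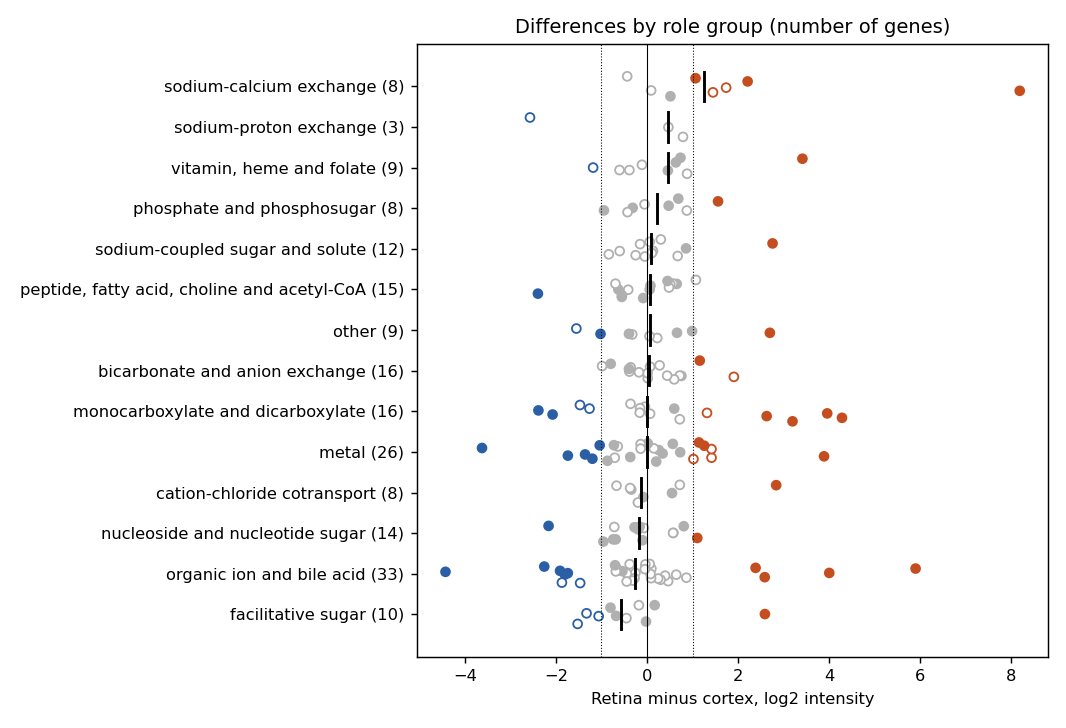
Retina minus cortex log2 difference of each gene (points, spread vertically for clarity) in 14 role groups, with the number of genes in brackets and the group median as a black bar; orange points are called higher, blue lower and grey not called, open points are dim in both tissues, and dotted lines mark 2-fold. The sodium-calcium exchange group has the highest median (1.26) and the facilitative sugar group the lowest (-0.57).

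Sodium-calcium exchangers of families 8 and 24 expel calcium from cells in exchange for sodium, those of family 24 together with potassium. Of the 8 measured, 5 were higher in retina and 0 were lower, against 14.2% and 14.7% of all named genes. The median difference was 1.26, beside -0.04 for all members. Slc24a1, the exchanger of the rod outer segment that removes the calcium entering through the light-regulated channel, differed most of all 187 genes. Its log2 intensity was 17.45, 17.18, 17.43, 17.48 and 17.40 on the 5 retina arrays and 9.25, 9.36, 9.41, 9.25 and 8.75 on the 5 cortex arrays. The retina arrays were all far above the cortex arrays, with means of 17.39 ± 0.12 and 9.21 ± 0.26 (SD, n = 5), a difference of 8.19 (SE 0.11, 291-fold, adjusted p = 1.05e-18). Its cortex level was dim, and with cortex set at the olfactory receptor level the difference was 6.75. The genes of the rod channel that admits this calcium were higher too: Cnga1 by 10.62 (SE 0.08) and Cngb1 by 10.55 (SE 0.27). Both were dim in cortex, and with cortex set at the olfactory receptor level the differences were 7.64 and 9.23.

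Relatives of the rod exchanger differed far less. Slc24a3, a widely expressed neuronal exchanger, read 13.17, 13.17, 13.31, 13.17 and 13.18 in retina and 12.08, 12.12, 12.26, 12.28 and 11.94 in cortex. Its arrays did not overlap, and the difference was 1.07 (SE 0.08, adjusted p = 3.31e-09), or 0.66 and not called without normalization. Slc24a4, an exchanger known from olfactory neurons and enamel, was at 11.29 ± 0.17 in retina against 9.08 ± 0.67 in cortex (SD, n = 5) and was higher by 2.21 (SE 0.29), or by 0.64 with dim cortex set at the olfactory receptor level. Slc24a5, the exchanger of pigment cell organelles, was dim in both tissues at 10.66 ± 0.37 and 9.22 ± 0.48 (SD, n = 5), a difference of 1.45 (0.94 and not called without normalization). Slc24a2, an exchanger known from cones, was dim in both tissues, with overlapping arrays of 8.23 to 10.30 in retina and 9.26 to 9.99 in cortex. It was not called (-0.44, SE 0.39, adjusted p = 0.407). Slc24a6 is the older symbol of Slc8b1, given next, and Slc8a1 was not analysed here.

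In family 8, Slc8a3, a plasma membrane exchanger of brain and muscle, was called higher by 1.74 (SE 0.39, adjusted p = 0.00126), but it was dim in both tissues and its arrays overlapped (9.49 to 10.92 in retina, 7.54 to 9.75 in cortex). Slc8a2, a neuronal exchanger, was dim and scattered, with retina arrays from 5.89 to 9.70 and cortex arrays from 5.46 to 8.41, and its difference was 0.09 (SE 0.62). Slc8b1, the mitochondrial exchanger, was bright in both tissues (13.47 ± 0.09 and 12.95 ± 0.06, SD, n = 5) and differed by 0.51 (SE 0.06), short of 2-fold. The count of 5 higher members of this group fell to 3 without normalization, and 4 of the 8 genes were dim in both tissues.

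Markers of pigmented cells, which bear on the pigment cell exchanger, were not all called. Of the melanocyte list, 3 of 4 measured genes were higher in retina (Dct by 5.21 and Tyrp1 by 4.23, both dim in cortex, and Pmel, dim in both, by 2.14), Tyr was dim in both tissues, and their summed intensity spanned 24100 to 27450 in retina and 1100 to 2366 in cortex. Slc45a2, another pigment cell transporter, was dim in both tissues and did not pass the test (8.67 ± 0.70 and 8.62 ± 0.49, SD, n = 5). The part of pigmented cells in the Slc24a5 difference was not tested.

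Chloride cotransporters of family 12 set the chloride content of neurons: Slc12a2 (NKCC1) brings chloride in, and Slc12a5 (KCC2) takes it out, as neurons mature. Of the 8 measured, Slc12a5 was the one called (1 other gene was lower without normalization). It read 14.26, 14.25, 14.13, 14.05 and 14.02 in retina and 11.46, 11.03, 11.36, 11.32 and 11.37 in cortex. Every retina array was above every cortex array, and the difference was 2.84 (SE 0.09, 7.14-fold, adjusted p = 3.68e-14). Slc12a2 read 13.06, 12.83, 12.92, 13.11 and 13.29 in retina and 13.44, 13.37, 13.35, 13.49 and 13.30 in cortex. It lay slightly lower in retina on all arrays, by -0.35 (SE 0.08, adjusted p = 0.00158), short of the 2-fold minimum. Slc12a4 (KCC1), the housekeeping exporter, was at 11.98 ± 0.13 and 12.07 ± 0.09 (SD, n = 5) with overlapping arrays. Among the kinases that regulate these carriers, Wnk1 was called higher by 1.05 (dim in both tissues), while Stk39 (0.84) and Wnk4 (0.30) stayed under 2-fold.

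Bicarbonate and anion exchangers of families 4 and 26 control pH and chloride. Of 16 measured, 12 were dim in both tissues, 2 were higher and 0 lower (1 higher and 2 lower without normalization). Slc4a10, a sodium-driven bicarbonate transporter of neurons, read 15.75, 15.51, 15.30, 15.50 and 15.63 in retina and 14.41, 14.35, 14.46, 14.40 and 14.28 in cortex. The arrays did not overlap, and it was higher by 1.16 (SE 0.07, adjusted p = 2.69e-10), or 0.77 and not called without normalization. Slc26a11, an anion transporter, was called higher by 1.91 (SE 0.32) from dim values of 10.65 ± 0.18 and 8.74 ± 0.68 (SD, n = 5). Slc4a3, an anion exchanger of neurons and heart, lay at 10.52 ± 0.06 and 10.46 ± 0.55 (SD, n = 5), dim in both tissues, with a difference of 0.07 (SE 0.24).

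The carbonic anhydrases that supply these transporters with bicarbonate were called in both directions. Car2 was higher in retina by 5.02 (SE 0.05) and Car14, of Müller glia and pigment epithelium, by 4.90 (SE 0.18), while Car4, an enzyme of vessel walls, was lower by -3.03 (SE 0.18), or by -1.45 with dim retina set at the olfactory receptor level. The sodium pump subunit Atp1b2, which maintains the gradient that sodium-coupled carriers use, was higher by 2.65 (SE 0.06), and Atp1b1 differed by 0.31 (SE 0.06), under 2-fold. Of 24 genes listed as partners of SLC proteins, 19 were measured, with a median difference of 1.05. Of these, 10 were higher (14.2% of all named genes were), 2 lower (14.7% of all named genes) and 7 not called. The partner list holds the rod channel and was drawn up with retina in mind.

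Of the sodium-proton exchangers, 3 were measured, and all were dim in both tissues. Slc9b2, a sodium-proton exchanger of organelles and plasma membrane, was at 7.89 ± 0.55 in retina against 10.46 ± 0.41 in cortex (SD, n = 5), with no overlap and a difference of -2.57 (SE 0.34, adjusted p = 5.06e-06). The other 2 were not called.

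**Figure D3:**
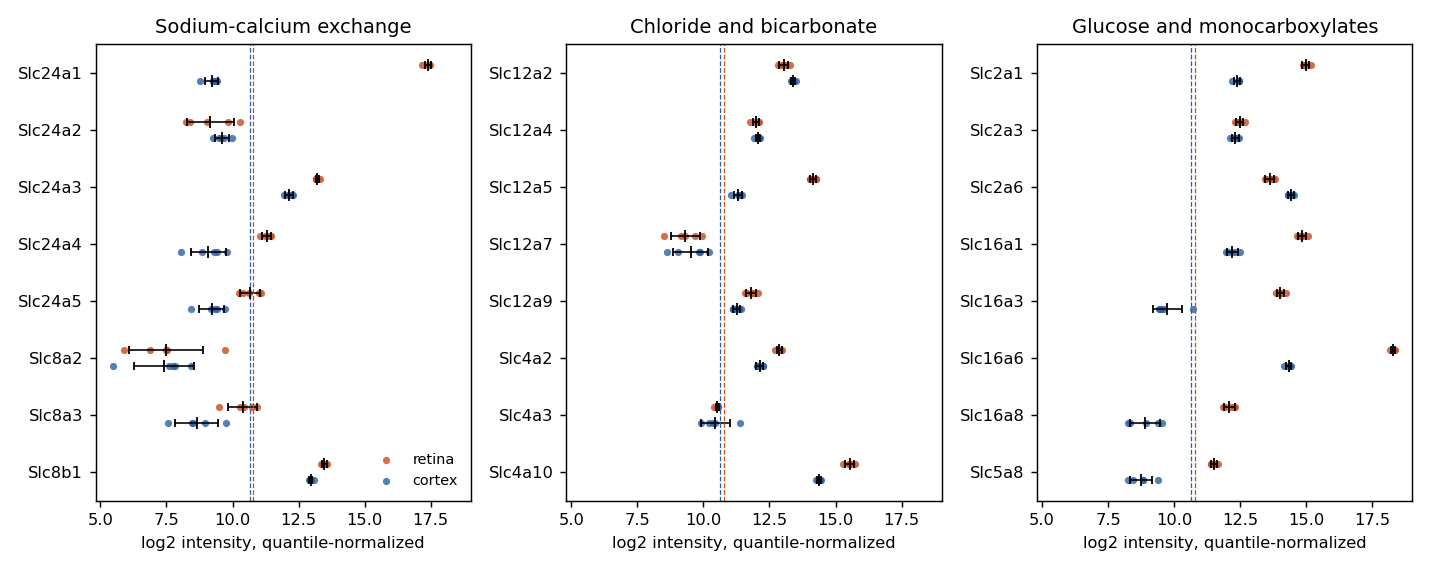
Log2 intensity on each array (points) with mean and SD (bars) for 24 genes of calcium, chloride and bicarbonate, and glucose and monocarboxylate transport; retina is orange and cortex blue, and the dashed lines mark the olfactory receptor level in each tissue. Slc24a1, Slc12a5, Slc2a1, Slc16a1, Slc16a3 and Slc16a6 are separated between tissues by 2.59 to 8.19, while Slc24a2, Slc8a2, Slc12a4, Slc2a3 and Slc4a3 overlap.

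Glucose carriers of family 2 let sugar pass down its gradient. Of the 10 measured, 1 was higher in retina and 3 were lower (5 without normalization), and the median difference was -0.57. The higher one was Slc2a1 (GLUT1), the carrier of blood-tissue barriers and of photoreceptors. It read 15.19, 15.04, 14.86, 14.90 and 14.92 in retina and 12.44, 12.46, 12.41, 12.46 and 12.19 in cortex. The retina arrays all lay above the cortex arrays, a difference of 2.59 (SE 0.07, 6.02-fold, adjusted p = 1e-14). The neuronal glucose carrier Slc2a3 (GLUT3) read 12.45, 12.31, 12.68, 12.54 and 12.39 in retina and 12.45, 12.22, 12.39, 12.35 and 12.12 in cortex. Its arrays overlapped and its difference was 0.17 (SE 0.09, adjusted p = 0.159). Txnip, whose product removes glucose carriers from the membrane, was lower in retina by -2.38 (SE 0.09).

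The 3 glucose family genes lower in retina were all dim in both tissues: Slc2a10 by -1.52 (SE 0.29), the fructose carrier Slc2a5 by -1.33 (SE 0.44) and the insulin-responsive carrier Slc2a4 by -1.06 (SE 0.36). The arrays of Slc2a5 and Slc2a4 overlapped between tissues. The call for Slc2a5 was lost without retina replicate 3 (-1.07), and that for Slc2a4 without cortex replicate 3 (-0.83) or retina replicate 4 (-0.90). With 200 added before the log neither was called (-0.92 for Slc2a5, -0.62 for Slc2a4), and Slc2a4 was also not called with array medians set equal (-0.89). Neither was called in limma's treat test against a 1.5-fold difference (adjusted p = 0.19 for Slc2a5, 0.337 for Slc2a4). Slc2a8, an intracellular carrier, was at 10.84 ± 0.35 and 10.86 ± 0.20 (SD, n = 5), a difference of -0.02. Sodium-coupled carriers of family 5 were mostly dim (10 of 12 in both tissues). The one called, Slc5a8, which takes up lactate and other monocarboxylates with sodium, was higher by 2.76 (SE 0.24). It read 11.51, 11.41, 11.66, 11.53 and 11.39 in retina and 8.46, 8.24, 9.37, 8.83 and 8.81 in cortex, where it was dim, and with cortex set at the olfactory receptor level the difference was 0.85. A second Slc5a8 probe was also called, at 3.35 (SE 0.23).

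Endothelial markers, which bear on a barrier carrier such as Slc2a1, did not move one way. Of 5 measured, Kdr was higher in retina by 2.17, Cldn5, Tek and Cdh5 (dim in both tissues) were lower by -2.03, -1.32 and -1.39, and Pecam1 was at -0.94 and not called. Their summed intensity spanned 81140 to 96430 in retina and 82620 to 87300 in cortex. Kdr was the brightest of them in retina (16.15) and Cldn5 in cortex (15.92), so the 2 sums rest on different genes. The part of vessels in the Slc2a1 difference was not tested.

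Monocarboxylate transporters of family 16 move lactate, pyruvate and ketone bodies, and dicarboxylate transporters of family 13 move intermediates of the citric acid cycle and sulfate. Of the 16 measured genes, 5 were higher in retina and 4 lower (4 and 4 without normalization), and 9 were dim in both tissues. All 5 higher ones were in family 16. Of these, Slc16a11 was dim in both tissues and higher by 1.32 (SE 0.26), or 0.80 and not called without normalization. Slc16a6 (MCT7), linked to ketone body and taurine transport, read 18.37, 18.31, 18.27, 18.18 and 18.30 in retina and 14.38, 14.33, 14.35, 14.16 and 14.43 in cortex. All retina arrays were above all cortex arrays, by 3.96 (SE 0.05, 15.5-fold, adjusted p = 2.12e-18). Slc16a3 (MCT4), the lactate exporter of glycolytic cells, read 14.23, 14.03, 13.84, 14.03 and 13.96 in retina and 9.60, 10.71, 9.49, 9.47 and 9.42 in cortex. One cortex array, replicate 2, stood above the other cortex arrays, and the tissues did not overlap: the difference was 4.28 (SE 0.20, 19.5-fold, adjusted p = 7.92e-12), or 3.37 with dim cortex set at the olfactory receptor level.

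Slc16a1 (MCT1), a lactate and pyruvate carrier of many cell types, read 14.66, 14.86, 15.05, 14.80 and 14.74 in retina and 11.97, 12.04, 12.31, 12.49 and 12.19 in cortex. The difference, 2.63 (SE 0.10, 6.18-fold, adjusted p = 2.86e-13), again exceeded the spread of both tissues. Slc16a8 (MCT3), the lactate carrier of the pigment epithelium, read 12.29, 11.83, 11.93, 12.14 and 12.27 in retina and 8.34, 9.40, 8.93, 8.27 and 9.54 in cortex. It was higher by 3.20 (SE 0.25, adjusted p = 9.99e-09) and dim in cortex, where the olfactory receptor level in its place gave 1.45. Slc16a7 was not analysed here. Of the pigment epithelium markers, 3 of 5 measured were higher in retina (Rpe65, dim in cortex, by 6.81, Rdh5 by 4.18 and Rlbp1, also of Müller glia, by 3.15), Ttr was lower by -1.38 and Best1 was dim in both tissues. With the very bright Ttr among them, their summed intensity spanned 723500 to 831100 in retina and 857400 to 993600 in cortex. The part of pigment epithelium in the Slc16a8 difference was not tested.

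Monocarboxylate carriers reach the membrane with the help of a glycoprotein partner. Bsg (basigin), partner of MCT1, MCT3 and MCT4, was at 18.51 ± 0.11 in retina against 17.23 ± 0.05 in cortex (SD, n = 5). It differed by 1.28 (SE 0.06, adjusted p = 4.52e-12), a call not checked without normalization. Emb (embigin), a relative with the same role, was higher by 2.50 (SE 0.08), and Nxnl1, which encodes the rod-derived cone viability factor that binds basigin, by 7.51 (SE 0.18), or by 6.19 with dim cortex set at the olfactory receptor level.

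The family 16 genes lower in retina were orphan carriers: Slc16a14 by -2.07 (SE 0.21, dim in retina, and -0.49 with retina set at the olfactory receptor level) and Slc16a13 by -1.47 (SE 0.38, dim in both tissues and overlapping). In family 13, Slc13a3, a sodium-dicarboxylate carrier, read 10.89, 11.38, 11.45, 11.17 and 11.07 in retina and 13.47, 13.67, 13.52, 13.70 and 13.53 in cortex. It was above the olfactory receptor level in both tissues, and lower in retina on every array, by -2.39 (SE 0.10, adjusted p = 3.33e-12). Slc13a4, a sulfate carrier, was dim in both tissues at 8.85 ± 0.55 and 10.12 ± 0.17 (SD, n = 5), a difference of -1.26 (SE 0.30). Its call was lost with 200 added before the log (-0.97) and in limma's treat test against a 1.5-fold difference (adjusted p = 0.0762), and that of Slc16a13 in the latter (adjusted p = 0.0638).

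**Figure D4:**
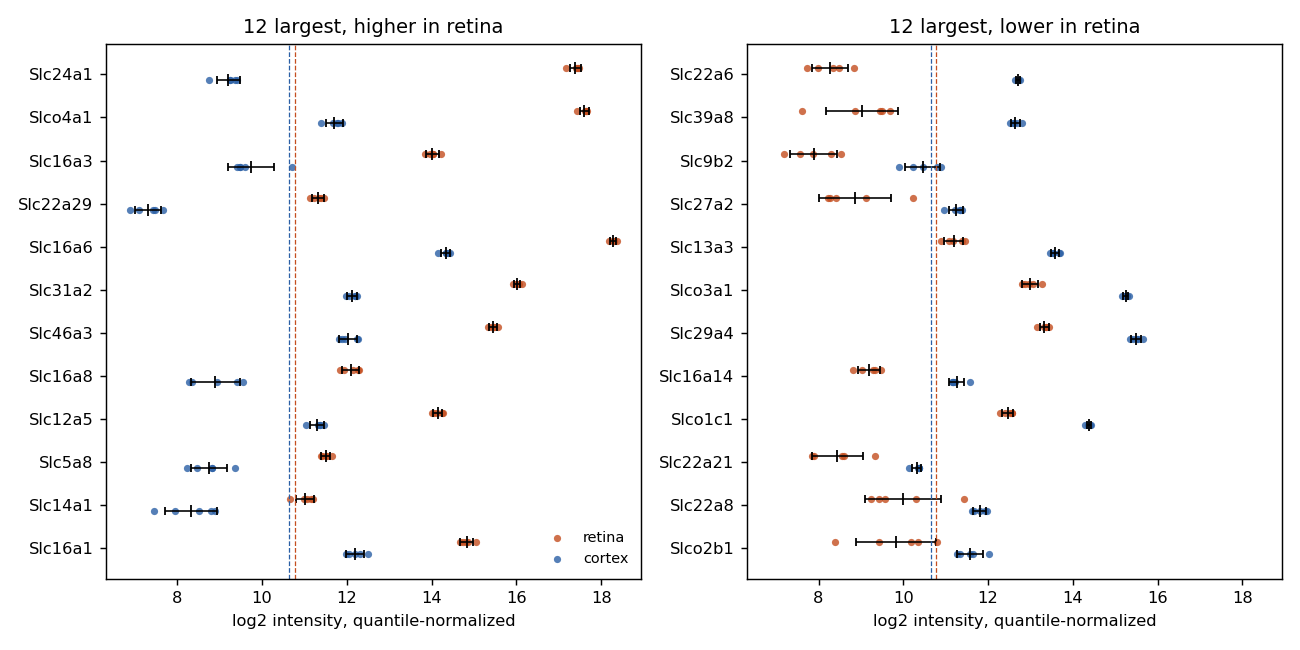
Log2 intensity on each array (points) with mean and SD (bars) for the called genes that differed most, 12 in each direction, among those whose arrays do not overlap between tissues; retina is orange, cortex blue, and dashed lines mark the olfactory receptor level in each tissue. Differences run from 8.19 (Slc24a1) to 2.63 (Slc16a1) on the left and from -4.43 (Slc22a6) to -1.74 (Slco2b1) on the right.

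Organic ion and bile acid carriers (families 10, 22, 47 and Slco) were the most numerous group, and 22 of the 33 were dim in both tissues. In all, 4 (12.1%) were higher in retina and 7 (21.2%) lower, against 14.2% and 14.7% of all named genes. The median difference of the group was -0.26. Slco4a1 (OATP4A1), an organic anion transporter that carries thyroid hormone among other substrates, read 17.43, 17.64, 17.62, 17.67 and 17.65 in retina and 11.89, 11.77, 11.80, 11.39 and 11.68 in cortex. It was bright in retina on every array, and the difference of 5.90 (SE 0.08, 59.6-fold, adjusted p = 1.6e-18) was second only to Slc24a1 among the 187 genes. Slco1a4, an organic anion transporter of the blood-brain barrier, was higher by 2.38 (SE 0.20), at 12.85 ± 0.08 against 10.47 ± 0.54 (SD, n = 5), or by 2.21 with dim cortex set at the olfactory receptor level.

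The other 2 higher genes, Slc22a29 and Slc22a30, belong to a rodent cluster of organic anion transporter genes of similar sequence, so signal from a close relative cannot be told apart on these probes. Slc22a29 read 11.35, 11.39, 11.12, 11.22 and 11.47 in retina and 7.66, 7.09, 6.89, 7.42 and 7.48 in cortex. The 2 tissues did not overlap (4.00, SE 0.27), but retina lay just above the olfactory receptor level, and with cortex set at that level the difference was 0.66. Slc22a30 was higher by 2.58 (SE 0.30), or 0.42 on the same basis.

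The largest difference toward cortex among all 187 genes was that of Slc22a6. Slc22a6 (OAT1), which takes up organic anions in kidney, meninges and choroid plexus, read 8.34, 8.49, 7.72, 7.99 and 8.83 in retina and 12.71, 12.76, 12.63, 12.71 and 12.70 in cortex. No retina array came near the cortex arrays, and the difference was -4.43 (SE 0.21, 21.5-fold lower in retina, adjusted p = 1.19e-11). With retina, where it was dim, set at the olfactory receptor level it was -1.93. Slc22a8 (OAT3), its close relative in function, was lower by -1.81 (SE 0.32), with retina arrays from 9.24 to 11.43 and cortex arrays from 11.61 to 11.98, or by -1.02 with dim retina set at that level. Slco2b1, an organic anion transporter of liver, gut and vessels, was lower by -1.74 (SE 0.35), or -0.79 on the same basis.

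Markers of fibroblasts and meninges were lower in retina for all 6 genes measured, with a median of -2.93 (from -6.53 for Col3a1 to -2.52 for Dcn) and a summed intensity of 11760 to 14130 in retina and 129600 to 136600 in cortex. Col3a1, Lum and Ogn were dim in retina. Of the choroid plexus list, by contrast, 5 of 6 genes were higher in retina, and Ttr was lower. Otx2 was higher by 5.20 and Aqp1 by 4.79, and retina expresses both itself. Folr1 was higher by 1.67, Clic6 by 1.29 (dim in cortex, with overlapping arrays) and Kl by 1.01 (dim in both tissues). The summed intensity of that list spanned 796200 to 850000 in retina and 837100 to 970800 in cortex. The cortex sum was mostly Ttr (19.73), and the retina sum was mostly Ttr (18.34), Otx2 (18.22) and Aqp1 (17.28). The part of these cells in the lower organic anion carriers was not tested.

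Slco1c1 (OATP1C1), which brings thyroxine into the brain across vessels and choroid plexus, read 12.52, 12.56, 12.57, 12.40 and 12.27 in retina and 14.42, 14.40, 14.39, 14.29 and 14.36 in cortex. It was above the olfactory receptor level in both tissues, and lower in retina on every array, by -1.91 (SE 0.07, adjusted p = 1.51e-13). Slco3a1, a widely expressed relative, read 13.05, 13.28, 12.96, 12.87 and 12.80 in retina and 15.32, 15.22, 15.27, 15.17 and 15.24 in cortex. Its difference was -2.26 (SE 0.08, adjusted p = 1.06e-13), well beyond the spread of either tissue. Slc22a21, a carnitine carrier, and Slco4c1, a kidney organic anion carrier, were dim in both tissues and lower by -1.87 (SE 0.32) and -1.47 (SE 0.38). The call for Slco4c1 was lost with 200 added before the log (-0.88) and in a test against a 1.5-fold difference (limma's treat, adjusted p = 0.0632). Slc22a17, the receptor for lipocalin 2, was among the brightest members of both tissues (16.84 ± 0.31 and 17.38 ± 0.07, SD, n = 5) and differed by -0.54 (SE 0.11), short of 2-fold.

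Metal transporters comprised 26 measured genes, of which 6 were higher in retina and 5 lower, with a median of -0.01. Without normalization 1 was higher and 9 lower, so the balance of this group depended on the scaling. Slc31a2 (CTR2), a copper transporter of endosomes and lysosomes, read 16.06, 16.02, 15.98, 16.12 and 15.93 in retina and 12.04, 12.20, 12.20, 11.98 and 12.25 in cortex. The difference was 3.89 (SE 0.06, 14.8-fold, adjusted p = 1.11e-17), with no overlap, and it was the metal gene still called higher without normalization (3.49). Its relative Slc31a1 (CTR1), the main copper importer of the cell membrane, was at 14.26 ± 0.04 and 14.06 ± 0.05 (SD, n = 5), a difference of 0.20.

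**Figure D5:**
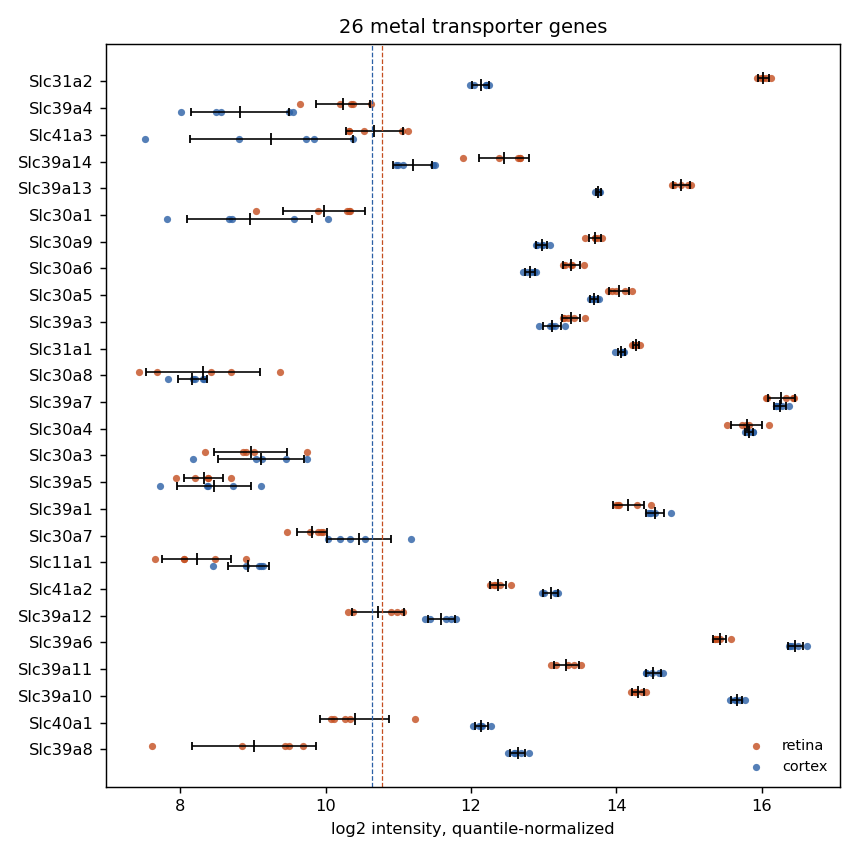
Log2 intensity on each array (points) with mean and SD (bars) for the 26 metal transporter genes, ordered by difference; retina is orange, cortex blue, and dashed lines mark the olfactory receptor level in each tissue. Slc31a2 at the top is higher in retina by 3.89, Slc39a8 at the bottom lower by -3.62, and Slc39a7 and Slc30a4 in the middle overlap.

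Zinc importers of family 39 (ZIP) differed in both directions. ZIP8 (Slc39a8), which brings zinc and manganese into cells, read 7.61, 9.69, 9.44, 8.85 and 9.50 in retina and 12.59, 12.61, 12.51, 12.80 and 12.69 in cortex. All cortex arrays were above all retina arrays, by -3.62 (SE 0.31, adjusted p = 2.11e-08), or -1.87 with dim retina set at the olfactory receptor level. ZIP10 (Slc39a10) and ZIP6 (Slc39a6), related zinc importers that form a complex, were lower by -1.36 (SE 0.05) and -1.04 (SE 0.06), both from bright values. ZIP10 read 14.27, 14.20, 14.41, 14.25 and 14.35 in retina and 15.70, 15.56, 15.63, 15.76 and 15.64 in cortex. The call for ZIP6 lay at the 2-fold limit, and was lost without cortex replicate 5 (-0.9985) and with array medians set equal (-0.89). Slc39a11 was lower by -1.20 (SE 0.08).

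The zinc importers higher in retina were ZIP14 (Slc39a14), which also carries iron and manganese, by 1.26 (SE 0.16), ZIP13 (Slc39a13), of the secretory pathway, by 1.14 (SE 0.06), and ZIP4 (Slc39a4), the gut zinc importer, by 1.42 (SE 0.34, dim in both tissues). None of these 3 was called without normalization (0.82, 0.76 and 0.92), nor was ZIP4 in limma's treat test against a 1.5-fold difference (adjusted p = 0.0537). ZIP7 (Slc39a7), which releases zinc from the endoplasmic reticulum, was at 16.27 ± 0.19 and 16.25 ± 0.08 (SD, n = 5), and the zinc exporter Slc30a4 at 15.79 ± 0.21 and 15.82 ± 0.05, both with overlapping arrays. The remaining called genes, the zinc exporter Slc30a1 (1.02, SE 0.41, adjusted p = 0.0495) and the magnesium carrier Slc41a3 (1.42, SE 0.43), were dim in both tissues with overlapping arrays. The call for Slc41a3 was lost without cortex replicate 1 (0.98), and that for Slc30a1 without any one of cortex replicates 1, 3 and 4 and retina replicates 2, 3, 4 and 5 (0.73 to 1.04). Without normalization neither was called (0.91 and 0.54), and with 200 added before the log Slc30a1 was not (0.76). Neither was called in limma's treat test against a 1.5-fold difference (adjusted p = 0.133 for Slc41a3, 0.463 for Slc30a1). Slc30a1 was also not called in limma without the variance trend (adjusted p = 0.0776).

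Ferroportin (Slc40a1), the iron exporter of cells, read 10.07, 11.23, 10.33, 10.27 and 10.12 in retina and 12.15, 12.14, 12.27, 12.11 and 12.03 in cortex. It was lower in retina by -1.74 (SE 0.19, adjusted p = 5.21e-07), or -1.37 with dim retina set at the olfactory receptor level, and retina replicate 2 stood above the other retina arrays. Its partner Cp (ceruloplasmin), which oxidises the exported iron, was higher in retina by 3.88 (SE 0.35), or by 1.51 with dim cortex set at that level. Tfrc, the transferrin receptor that brings iron in, was at 0.81 (SE 0.16), short of 2-fold. Erythroid markers mark blood cells rich in iron genes. Both genes measured were lower in retina (Alas2, dim there, by -2.54 and Hba-a1 by -2.06). Their summed intensity spanned 32890 to 40430 in retina and 123800 to 161200 in cortex. The part of blood in the ferroportin difference was not tested.

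Among nucleoside and nucleotide sugar carriers, 1 of 14 was higher and 1 lower (0 and 5 without normalization). Slc29a4 (PMAT), a monoamine and cation carrier of neurons, read 13.37, 13.37, 13.16, 13.43 and 13.33 in retina and 15.66, 15.52, 15.53, 15.34 and 15.41 in cortex. It was lower in retina by -2.16 (SE 0.07, adjusted p = 3.04e-14), with no overlap, and its second probe was lower too (-2.49, SE 0.32). Slc29a2 (ENT2), an equilibrative nucleoside carrier, was higher by 1.10 (SE 0.08), or 0.70 and not called without normalization. Slc35b1, a carrier of the endoplasmic reticulum, was bright in both tissues (16.63 ± 0.11 and 17.32 ± 0.07, SD, n = 5) and differed by -0.69 (SE 0.06), but was called lower without normalization (-1.10).

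Vitamin, heme and folate carriers had 1 of 9 higher and 1 lower. Slc46a3, a transporter of the lysosome membrane, read 15.32, 15.47, 15.56, 15.40 and 15.47 in retina and 11.82, 12.27, 11.88, 11.95 and 12.23 in cortex. All retina arrays exceeded all cortex arrays, by 3.41 (SE 0.09, 10.7-fold, adjusted p = 2.54e-15). Slc23a1, a vitamin C carrier, was dim and overlapping, and was called lower (-1.18, SE 0.45, adjusted p = 0.0403). Its call was lost in 8 of the 10 fits that left out an array (-1.19 to -0.99), all but those without cortex replicate 2 or retina replicate 2. It was also lost with array medians set equal (-1.07) or with 200 added before the log (-0.79). The same held in limma's treat test against a 1.5-fold difference (adjusted p = 0.332), and in limma without the variance trend (adjusted p = 0.0639) or with the replicate block (adjusted p = 0.0711). Slc19a1, the reduced folate carrier, was at 15.74 ± 0.23 and 15.11 ± 0.06 (SD, n = 5), a difference of 0.63 (SE 0.08) under the 2-fold minimum.

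Of 8 phosphate carriers, Slc20a2 (PiT2), a sodium-phosphate importer, was the one called. Without normalization 1 other gene was lower, and with array medians set equal 1 other was higher. It averaged 14.22 ± 0.28 in retina against 12.66 ± 0.13 in cortex (SD, n = 5) with no overlap, and the difference was 1.56 (SE 0.11, adjusted p = 2.25e-09). Of 15 peptide, fatty acid, choline and acetyl-CoA carriers, 0 were higher and 1 was lower (4 lower without normalization). That one, Slc27a2 (FATP2), which takes up fatty acids and activates very long chains, was at 8.85 ± 0.85 in retina against 11.25 ± 0.17 in cortex (SD, n = 5) and differed by -2.40 (SE 0.34), or -0.48 with dim retina set at the olfactory receptor level. Its relative Slc27a1 was at 13.77 ± 0.09 and 13.71 ± 0.11 (SD, n = 5), a difference of 0.06.

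In the 9 genes of remaining families, 1 was higher and 2 lower. Slc14a1 (UT-B), the urea transporter of red cells, vessels and glia, read 10.67 to 11.20 in retina and 7.45 to 8.90 in cortex, where it was dim. It was higher by 2.70 (SE 0.31, adjusted p = 8.56e-07), or by 0.37 with cortex set at the olfactory receptor level. Both erythroid markers measured were lower in retina, and Alas2 was dim there. The part of blood, vessels or glia in the Slc14a1 difference was not tested. Slc49a4, a lysosomal membrane protein, was bright (14.90 ± 0.08 and 15.92 ± 0.05, SD, n = 5) and lower by -1.02 (SE 0.05), at the 2-fold limit, so that the call was lost without retina replicate 3 (-0.9967) and with array medians set equal (-0.87). Slc45a1, a proton-coupled sugar carrier of brain, was dim in both tissues and lower by -1.55 (SE 0.39), a call lost with 200 added before the log (-0.94).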

How the data were processed

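The authors deposited 1 table of linear intensity values for 33012 probes on 10 arrays, and all values were above 0. Per the labels' protocols, total RNA was extracted with TRIzol and copied into cRNA carrying digoxigenin, read by chemiluminescence. How the intensity values were scanned, background-corrected, normalized or called present was not given in the sources used here. For arrays, their number limits the precision.

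Deposited values were log2-transformed (log2 intensity). Array medians then spanned 0.68 log2 units, above the tolerance of 0.1, so arrays were quantile-normalized. The tissues were compared in a 2-sided test by limma 3.58.1 under R 4.3.3, using lmFit and eBayes(trend = TRUE) without covariates, and p-values were adjusted by the Benjamini-Hochberg method over all 33012 probes. A probe was called at an adjusted p under 0.05 and a difference of at least 2-fold. The procedure was tested on simulated data. SE is limma's standard error after shrinkage.

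The platform annotation gave gene names: 14411 probes had 1 symbol, 247 had several and 18354 were unnamed. The 187 genes had 192 probes, 5 of them having 2 probes each, and each gene was read from its brightest probe on average. Symbols that the naming rule does not cover (Slc35 letters d to g, Slc51a, Slc4a1ap, Slc9a3r1 and Slc9a3r2) were left out of the members. Role groups were set by family number. The members, lists, markers and rules were chosen with earlier results of these data known, so no count over them is independent evidence. The rule for named genes took 12 called genes in each direction with the largest difference and no overlap between tissues. It also took up to 4 called genes per role group, plus any against its group's direction. The 10 brightest in each tissue were added, with the 5 nearest to 0 among genes above the median of all probes (10.07) in both tissues. Relatives of the same role and called partner genes completed the rule. Slc12a4, Slc16a11, Slc30a1, Slc31a1, Slc39a13, Slc39a14, Slc41a3, Slc45a2, Slc8b1 and Slco4c1, and partner genes that were not called, fall outside this rule and were named after their values were seen. Alternatives covered the normalization, an offset, dim probes, the minimum difference, the variance trend, several probes of a gene, the replicate number as a block, and each array left out. The calls of single genes were followed through these alternatives for members only. Partner genes, such as Bsg and Wnk1, and marker genes were read under the main setting alone.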

Additional observations from a re-analysis of the deposited data

Results flagged for a closer look

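In 144 groups of 5 arrays (72 genes in each tissue), 18 held an array that stood apart from the other 4, by a gap of more than 0.71 of the group's range (Dixon's criterion); chance gives about 1 in 20 groups. All values are log2 intensities.

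In retina, 8 groups were concerned. Replicate 2 gave 9.94 for Slc23a1 (others 7.70 to 8.09), 17.18 for Slc24a1 (others 17.40 to 17.48) and 11.23 for Slc40a1 (others 10.07 to 10.33). Replicate 3 gave 10.20 for Slc16a13 (others 8.19 to 8.67), 13.31 for Slc24a3 (others 13.17 to 13.18) and 15.58 for Slc39a6 (others 15.36 to 15.42). Replicate 1 gave 10.42 for Slc4a3 (others 10.53 to 10.56) and 17.43 for Slco4a1 (others 17.62 to 17.67).

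In cortex, 10 groups were concerned. Replicate 2 gave 10.71 for Slc16a3 (others 9.42 to 9.60), 10.13 for Slc22a21 (others 10.34 to 10.37), 9.27 for Slc2a10 (others 9.77 to 9.91) and 10.81 for the partner gene Emb (others 11.04 to 11.10). Replicate 3 gave 12.43 for Slc20a2 (others 12.68 to 12.76), 9.95 for Slc26a11 (others 8.33 to 8.55) and 5.46 for Slc8a2 (others 7.58 to 8.41). Replicate 5 gave 8.75 for Slc24a1 (others 9.25 to 9.41) and 12.19 for Slc2a1 (others 12.41 to 12.46), and replicate 4 gave 11.57 for Slc16a14 (others 11.15 to 11.23). None of the called members among these genes lost its call on leaving out the array that stood apart.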

How the results depend on the processing

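The count of members higher in retina, 29, was 19 without normalization and 51 with no minimum difference. The count lower, 25, was 45 without normalization, 45 with no minimum difference, and 15 among members above the olfactory receptor level in at least 1 tissue, an alternative chosen after seeing the data (22 higher). Over the fits without 1 array, 28 to 30 were higher and 23 to 26 lower. With array medians set equal, which put the median difference of all probes at 0.13, 34 were higher and 21 lower, and the other settings gave 28 or 29 higher and 19 to 25 lower. The replicate block gave 29 higher and 24 lower. Same-numbered arrays correlated at -0.02 to 0.03 in their deviations, within the range for arrays of different numbers (-0.03 to 0.04). Yet 3 of 5 retina arrays correlated best with the cortex array of their own number. These values do not settle whether the numbers pair the samples. Of the 54 called members, 35 (19 higher and 16 lower) kept their call in all 19 settings that gave a value for them, and 7 lost it without at least 1 array: Slc23a1, Slc2a4, Slc2a5, Slc30a1, Slc41a3, Slc39a6 and Slc49a4. No called difference of the 60 named members turned its direction, while 7 uncalled members changed sign in 15 fits. Signal over background limits the 99 members dim in both tissues, for which the array files used here hold no detection call.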

Other observations

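Among 16 genes with SLC symbols outside the naming rule, 2 (12.5%) were called higher in retina and 2 (12.5%) lower. Over all named genes these shares were 14.2% and 14.7%. Slc51a, a bile acid and steroid carrier subunit, was higher by 1.93 and Slc35g1 by 1.21. Slc35f1 and Slc35f3, orphan members of the nucleotide sugar family, were lower by -2.05 and -1.48. Of these 4, all but Slc35f1 were dim in both tissues. The other 12 were not called.

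Of 4 genes measured from the lens list, Cryaa was higher in retina by 6.71 and Crygs by 6.48, both dim in cortex. The other genes of that list, Mip and Bfsp1, were dim in both tissues and not called. The part of lens in these differences was not tested. Of the Müller glia and astrocyte list, 3 were measured: Glul, glutamine synthetase, was higher by 2.45, Rlbp1 by 3.15, and the glutamate carrier Slc1a3 was at -0.84 and not called. Alb and Umod, of liver and kidney, were dim in both tissues.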
